A study of Mus musculus with 23 samples.

Results

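The genes described here are 10 genes of the G1/S step of the cell cycle, chosen by symbol because loss of Zbtb11 impairs proliferation. They are the cyclins *Ccnd1*, *Ccnd2*, *Ccnd3*, *Ccne1* and *Ccne2*, the kinases *Cdk2*, *Cdk4* and *Cdk6*, the inhibitor *Cdkn1b* and the transcription factor *E2f1*. All 10 were found among the 37310 genes of the RNA-seq count tables, and all 10 passed the filter on low counts (more than 1 CPM, the count scaled to library size, in at least 3 libraries), as did 14346 genes in all. Their promoters, from 2 kb upstream to 500 bases downstream of the start of the gene, were compared with the Zbtb11 peaks of the same study.

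RNA-seq was performed in E14 mouse embryonic stem cells (ESCs) in 3 groups of 3 replicates, collected after 48 h. The EtOH control and *Zbtb11* KO groups are the same inducible line (*Zbtb11* lox/lox, *Rosa26* ERt2-Cre), which was derived as a clone and carries a Cre recombinase that enters the nucleus on binding 4-hydroxytamoxifen (4OHT). The first group received the carrier ethanol and the second 250 nM 4OHT, which deletes part of *Zbtb11*. Per the paper, Zbtb11 protein was fully depleted at 48 h, while proliferation and survival had not yet detectably changed. The arrest of proliferation came later, so these libraries do not describe arrested cells. The 4OHT control is a different line (*Zbtb11* WT/WT, *Rosa26* WT) that received 250 nM 4OHT, so that its differences from the EtOH control combine the line and the treatment, which cannot be told apart. The ChIP-seq data comprise 4 libraries of E14 WT cells made with a Zbtb11 antibody, 3 FLAG ChIP libraries of cells with FLAG-tagged endogenous Zbtb11, and 2 FLAG control libraries of cells without the tag.

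Cyclins D bind and activate Cdk4 and Cdk6, and cyclins E bind and activate Cdk2. Both kinase complexes phosphorylate the retinoblastoma protein and its relatives, which releases E2F transcription factors and commits the cell to S phase, and the p27 protein encoded by *Cdkn1b* inhibits the cyclin E-Cdk2 complex. In mouse ESCs the G1 phase is short, and Cdk2 is known for being active through much of the cycle.

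The libraries held 14301457 to 23100544 counts on genes. The deletion of *Zbtb11* could not be followed in the counts, because the annotation used for counting has no gene of that name and places its transcript in the row of *Rpl24*. Summed levels of 6 ESC markers lay between 2942 and 3460 CPM over all 9 libraries, and none of these markers passed the threshold between *Zbtb11* KO and the EtOH control. Replicate 1 stood apart from replicates 2 and 3 in every group. For its final list the study left out 1 replicate that was distant in all groups, without giving its number in the main text. Replicate 1 is taken here to be that replicate. Each comparison is therefore given with all 3 replicates and without replicate 1. The variation between replicates, as the common biological coefficient of variation, was 17.4% with all 3 replicates and 6.80% without replicate 1.

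A high-confidence Zbtb11 peak lay at the promoters of 4 of the 10 genes, *Ccne1*, *Ccne2*, *Cdk2* and *Cdkn1b*. These encode both E-type cyclins, the kinase that they activate and an inhibitor of the complex. None of the 3 D-type cyclin genes, *Cdk4*, *Cdk6* or *E2f1* had one. The high-confidence peaks are the 7500 consensus peaks of the Zbtb11 and FLAG-Zbtb11 ChIPs. As background, 4026 of the 14346 tested genes (28.1%) had such a peak at the promoter, and the share of 40.0% among the 10 genes was not tested against it. In the separate lists of all Zbtb11 antibody peaks and all FLAG-Zbtb11 peaks, *Cdk6* joined the same 4 genes, which made 5 of 10 in each list (background 33.0 and 33.5%). No promoter of the 10 genes had a peak in the FLAG control.

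The sequences of the bound promoters are shown because they carry these peaks. Each is the 300 bases of mm9 directly upstream of the start of the gene, written 5′ to 3′ on the strand of the gene, and none of them overlaps an annotated exon. For *Ccne1* (chr7:38892554-38892853, minus strand) and *Ccne2* (chr4:11118198-11118497, plus strand) all 300 bases lie within the peak. For *Cdk2* (chr10:128142108-128142407, minus strand) and *Cdkn1b* (chr6:134870119-134870418, plus strand) the peak covers only the part nearest to the gene. Capitals mark the E2F motif TTTCCCGC on either strand.

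Ccne1: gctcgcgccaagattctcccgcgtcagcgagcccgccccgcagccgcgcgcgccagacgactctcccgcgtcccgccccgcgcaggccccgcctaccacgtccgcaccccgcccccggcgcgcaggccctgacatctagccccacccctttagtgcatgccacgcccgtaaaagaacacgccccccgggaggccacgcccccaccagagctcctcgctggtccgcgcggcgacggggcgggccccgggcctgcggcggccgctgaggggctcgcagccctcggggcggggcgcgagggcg
Ccne2: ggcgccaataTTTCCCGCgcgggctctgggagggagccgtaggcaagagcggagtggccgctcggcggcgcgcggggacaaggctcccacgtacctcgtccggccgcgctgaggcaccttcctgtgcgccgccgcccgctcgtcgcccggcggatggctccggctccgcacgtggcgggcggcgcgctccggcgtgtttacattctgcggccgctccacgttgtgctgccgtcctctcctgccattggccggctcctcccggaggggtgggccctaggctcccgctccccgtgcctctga
Cdk2: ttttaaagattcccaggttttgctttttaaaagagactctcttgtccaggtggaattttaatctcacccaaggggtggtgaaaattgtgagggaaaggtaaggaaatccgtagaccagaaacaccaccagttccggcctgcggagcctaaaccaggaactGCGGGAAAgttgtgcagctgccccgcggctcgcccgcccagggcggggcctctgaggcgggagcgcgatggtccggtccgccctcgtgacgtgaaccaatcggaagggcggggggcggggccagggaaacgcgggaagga
Cdkn1b: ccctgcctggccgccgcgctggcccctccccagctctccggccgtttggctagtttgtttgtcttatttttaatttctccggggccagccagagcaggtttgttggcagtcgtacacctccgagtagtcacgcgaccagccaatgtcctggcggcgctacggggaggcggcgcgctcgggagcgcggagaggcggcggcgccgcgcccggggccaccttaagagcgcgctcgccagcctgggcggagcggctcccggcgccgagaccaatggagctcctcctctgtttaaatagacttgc

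The E2F motif, searched as TTTCCCGC or TTTGGCGC on both strands, was found in the windows of *Ccne2*, from base -290 to -283, and *Cdk2*, from base -140 to -133 on the opposite strand (base -1 is next to the start). Of the other 8 genes none had an exact match in its 300 bases. Inexact forms and windows at other annotated starts were not searched. Among 14336 windows of the same length upstream of tested genes, 360 (2.51%) held 1 of the 2 forms. The ETS motif CCGGAAG was searched as an exact match for the site of GABPa, the DNA-binding subunit of NRF-2. It was in none of the 10 windows and in 12.6% of all windows. In the central 300 bases of the 4 peaks, CCGGAAG occurred in that of *Cdk2* alone, against 29.4% of the 7500 peaks. Over its whole length the peak of *Ccne1* held 1 match too, and those of *Ccne2* and *Cdkn1b* held none. The share over all whole peaks was not counted. The windows were rich in G and C, with 78.7% for *Ccne1*, 74.0% for *Ccne2*, 58.7% for *Cdk2* and 67.0% for *Cdkn1b*.

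The peaks differed in strength. Normalised read coverage at the *Cdk2* promoter was 227, 175, 163 and 142 in the 4 Zbtb11 libraries (177 ± 36.0, SD, n = 4) and 192, 181 and 147 in the 3 FLAG-Zbtb11 libraries. This was the strongest of the 4 peaks on average and lay above 79.4% of the 7500 peaks, with its centre 399 bases downstream of the start. The same peak also overlapped the promoter of *Pmel*, which starts 1207 bases away on the other strand. At *Ccne1* the Zbtb11 libraries gave 137, 143, 163 and 117 (140 ± 19.1, SD, n = 4), above 73.5% of all peaks, and the FLAG-Zbtb11 libraries 101, 84.8 and 96.4. The 2 ChIPs did not overlap there, and all 4 Zbtb11 libraries were higher. They differ in antibody and cell line. How many of the 7500 peaks separate in this way was not counted, so this is description only.

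At *Cdkn1b* the order was the opposite, again without a count over all peaks. The 4 Zbtb11 libraries gave 72.2, 83.4, 121 and 83.4 (90.0 ± 21.4, SD, n = 4), and the 3 FLAG-Zbtb11 libraries gave 154, 165 and 166, all of them higher. The peak stood above 59.6% of all peaks by its Zbtb11 coverage and above 80.7% by its FLAG-Zbtb11 coverage. The *Ccne2* peak was the weakest, with 45.6, 85.0, 83.6 and 79.8 in the Zbtb11 libraries (73.5 ± 18.7, SD, n = 4) and 72.8, 57.0 and 64.3 in the FLAG-Zbtb11 libraries. Both means were close to the median of all 7500 peaks, 71.3 for Zbtb11 and 65.6 for FLAG-Zbtb11. By Zbtb11 coverage the 4 promoter peaks were thus above the median of all peaks, while the median over the strongest promoter peak of each of the 4026 genes was 105. *Cdk2* and *Ccne1* exceeded that value and *Cdkn1b* and *Ccne2* did not.

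**Figure D1:**
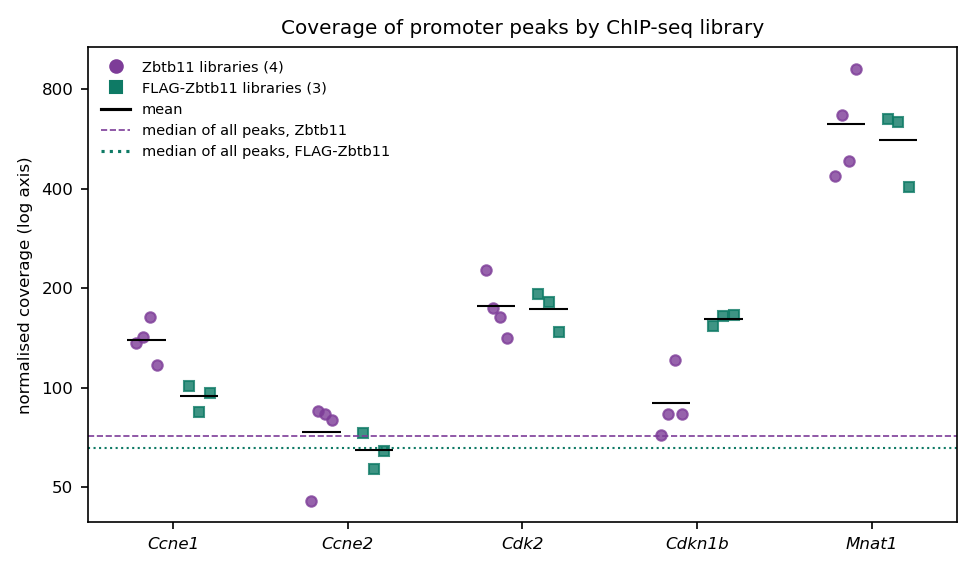
Normalised read coverage (log axis) of the high-confidence promoter peaks of *Ccne1*, *Ccne2*, *Cdk2*, *Cdkn1b* and, for scale, *Mnat1*, with 1 point per ChIP-seq library (circles, 4 Zbtb11 libraries; squares, 3 FLAG-Zbtb11 libraries), black bars for means and dashed or dotted lines for the medians of all 7500 peaks. *Cdk2* is the strongest of the first 4 genes with a mean of 177 in the Zbtb11 libraries, and *Mnat1* reaches 628.

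Among the genes without a high-confidence promoter peak, the nearest one was centred at -2.63 kb from the start of *Cdk6*, just beyond the promoter limit, and at -5.13 kb from that of *Cdk4*. The nearest peak centre was 16.6 kb or more away for *Ccnd3*, *Ccnd2*, *E2f1* and *Ccnd1*.

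Levels of the 10 genes were compared per length, as counts scaled for exon length and library size (RPKM), over the 9 libraries. *Cdk4* was highest (mean 72.2, range 61.4 to 89.0 RPKM), followed by *Ccne1* (66.8, 47.0 to 80.4) and *Ccnd3* (65.2, 55.0 to 79.2), and the ranges of these 3 overlapped. *Ccnd1* (30.4 RPKM) and *Cdk2* (29.7) formed the next pair and did not differ beyond their ranges. *E2f1* (16.2), *Cdkn1b* (11.9), *Ccnd2* (9.92), *Cdk6* (6.15) and *Ccne2* (4.75 RPKM) came last, and neighbours among these 5 overlapped in range. Of the D-type cyclins *Ccnd3* was thus the most abundant mRNA, above *Ccnd1* in every library, and *Ccne1* was far above *Ccne2*. *Ccnd2* varied most, from 1.64 to 20.0 RPKM.

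The gene counts carry limits for some of these genes. Exons of *Ccnd1*, *Ccnd3*, *Ccne2* and *Cdk4* share between 15.7 and 21.3% of their length with a gene on the opposite strand (*Oraov1*, *Bysl*, *Ints8* and *Tspan31*). Per the paper the libraries were directional, but whether the counting used the strand is not given in the sources used here. *Ccnd3* has 1 near-identical copy elsewhere in the genome, which matches 84.6% of its exon bases in stretches of at least 95% identity, so its counts are uncertain. *Cdk6* has such stretches at 2570 other loci and *Cdk4* at 3, which cover 8.2% and 3.3% of their exon bases, so the reads of these short parts are uncertain too.

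The first comparison set *Zbtb11* KO against the EtOH control of the same line, to ask whether these mRNAs changed with loss of Zbtb11. Only the KO group received the compound that brings Cre into the nucleus. Effects of the deletion, of that treatment and of Cre activity therefore cannot be told apart in this comparison alone. None of the 10 genes passed the threshold (edgeR adjusted p under 0.05) with all 3 replicates, where 0.899% of tested genes did, or without replicate 1, where 1.5% did. It was likewise 0 with the replicate number as a block (2.25%) and with DESeq2. At an unadjusted p under 0.05 there was 1 gene with all 3 replicates and 2 without replicate 1. Log2 fold changes lay between -0.20 and 0.11, with a median of -0.11 against -0.0006 over all tested genes, and 8 of 10 were below 0.

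*Cdk2*, the kinase of the E-type cyclins, had the only groups that did not overlap. It measured 81.9, 77.6 and 76.0 CPM in the EtOH control (replicates 1, 2 and 3) and 70.0, 70.5 and 67.2 CPM in *Zbtb11* KO, so that every KO library was below every control library. The share of tested genes with the same kind of separation, lower in KO, was 4.02%. The log2 fold change was -0.18 (SE 0.07, 95% confidence interval -0.34 to -0.03), a change of -11.8%, and the adjusted p was 1.00 over all genes, or 0.10 with the replicate block. *Cdk2* was at the same level in the 4OHT control, with 71.0, 69.1 and 67.0 CPM.

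*Ccne1*, cyclin E1, measured 140, 214 and 213 CPM in the EtOH control and 135, 193 and 191 CPM in *Zbtb11* KO. The KO library was the lower one in each pair of libraries with the same number, but the groups overlapped because replicate 1 was low in both. The log2 fold change was -0.13 (SE 0.23, adjusted p 1.00), and -0.15 (SE 0.07, adjusted p 0.79) without replicate 1. *Cdkn1b*, the p27 inhibitor, measured 77.1, 56.7 and 56.6 CPM in the EtOH control against 68.0, 51.3 and 46.3 CPM in KO, again lower in each pair. Its log2 fold change of -0.20 (SE 0.21, adjusted p 1.00) became -0.22 (SE 0.08, adjusted p 0.56) without replicate 1. *Ccne2*, cyclin E2, was between 16.4 and 18.6 CPM in the EtOH control and between 15.8 and 16.6 CPM in KO.

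Pairing by replicate number showed the direction of these small differences. The KO library was below the EtOH control library of the same number in all 3 pairs for 7 genes (*Ccnd1*, *Ccnd3*, *Ccne1*, *Ccne2*, *Cdk2*, *Cdk6* and *Cdkn1b*), a pattern shown by 18.8% of tested genes. The direction was mixed for *Ccnd2*, *Cdk4* and *E2f1*. For *Ccnd1* the replicate 1 pair was almost equal (83.56 CPM in KO, 83.57 CPM in the EtOH control). *Ccne1*, *Cdk2*, *Cdk6* and *Cdkn1b* were also below the same EtOH control libraries in all 3 pairs in the 4OHT control, which has intact Zbtb11. With the replicate block, *Cdk2*, *Cdkn1b*, *Cdk6* and *Ccne1* had an unadjusted p under 0.05, and their adjusted p values were 0.10, 0.12, 0.39 and 0.44. None of the sizes was large. Without replicate 1, the 95% confidence intervals of all genes other than *Ccnd2* stayed between -0.43 and 0.16 on the log2 scale, and that of *Ccnd2* ran from -0.45 to 0.62.

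The other genes moved as little between these groups. *Ccnd2* measured 29.5, 78.5 and 102 CPM in the EtOH control and 34.4, 78.2 and 114 CPM in KO, and the difference (log2 fold change 0.11, SE 0.61) was far smaller than the spread between replicates. *Cdk4*, a partner kinase of the D-type cyclins, measured 200.2, 232 and 229 CPM against 199, 228 and 237 CPM (log2 fold change 0.01, SE 0.10). *E2f1*, the factor released when the retinoblastoma protein is phosphorylated, ranged from 44.9 to 64.6 CPM in the EtOH control and from 41.8 to 60.4 CPM in KO.

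**Figure D2:**
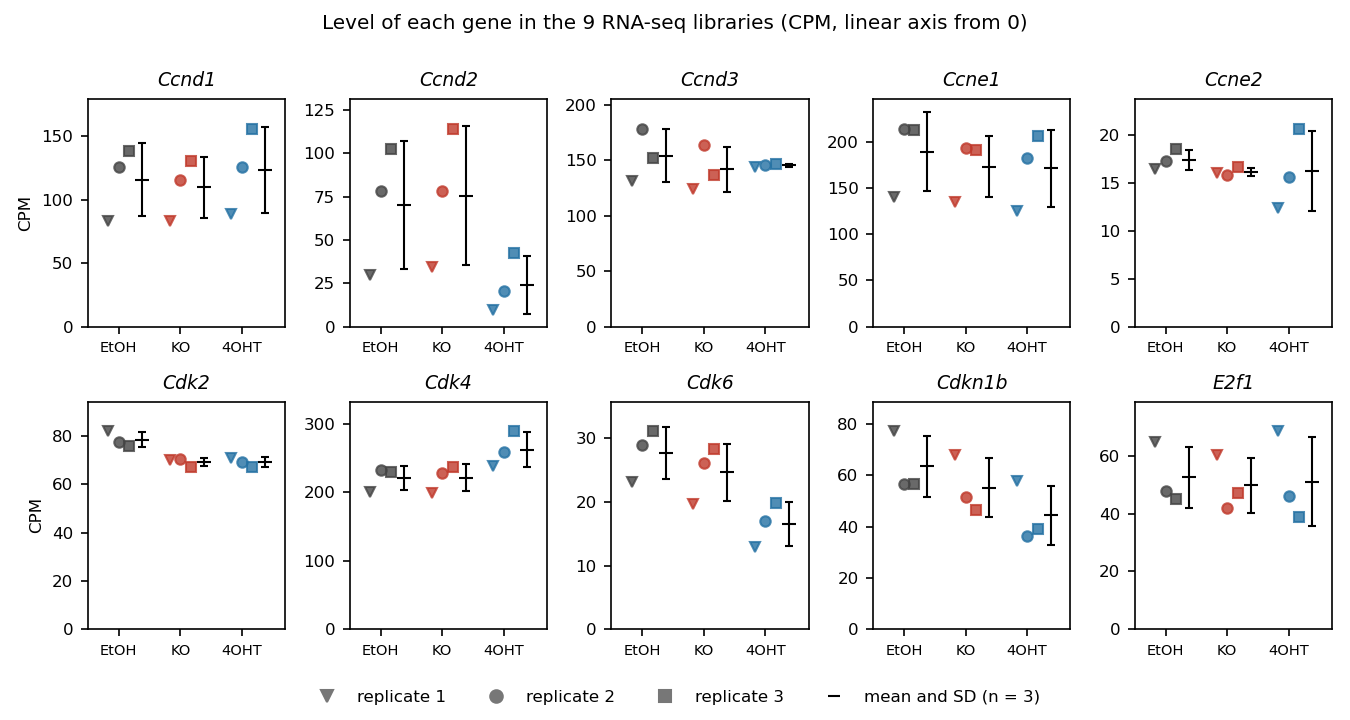
Level of each of the 10 genes (CPM, linear axes from 0) in the EtOH control (grey), *Zbtb11* KO (red) and 4OHT control (blue), with 1 symbol per library shaped by replicate number and black marks for mean and SD (n = 3). EtOH control and KO libraries overlap for every gene except *Cdk2*. *Ccnd2*, *Ccne1*, *Cdk2*, *Cdk6* and *Cdkn1b* have their lowest means in the 4OHT control, and those of *Ccne1* and *Cdk2* are close to the KO means.

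The second comparison set the 4OHT control against the EtOH control, the 2 groups with intact Zbtb11, which differ in line and treatment. *Ccnd2*, *Cdk6* and *Cdkn1b* were lower and *Cdk4* higher in the 4OHT control once replicate 1 was left out. With all 3 replicates 0 of 10 genes passed the threshold, where 4.06% of tested genes did, and 5 genes had an unadjusted p under 0.05. DESeq2 called 1 gene, *Cdk6*. Without replicate 1 there were 4 of 10, where 17.1% of tested genes passed. With the replicate block there were 6 of 10, with *Ccne1* and *Cdk2* also lower, where 33.6% of tested genes passed.

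*Ccnd2*, cyclin D2, had the largest difference of the 10 genes. It measured 9.33, 20.3 and 42.3 CPM in the 4OHT control against 29.5, 78.5 and 102 CPM in the EtOH control, lower in each pair of libraries, although the groups overlapped. The log2 fold change was -1.54 (SE 0.63, adjusted p 0.24), and -1.52 (SE 0.26, adjusted p 0.0025) without replicate 1. *Cdk6* measured 12.9, 17.0 and 19.8 CPM against 23.1, 28.9 and 31.1 CPM, and the groups did not overlap. Its log2 fold change was -0.74 (SE 0.19, adjusted p 0.071), and -0.70 (SE 0.10, adjusted p 0.00087) without replicate 1.

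*Cdkn1b* measured 57.6, 36.3 and 39.1 CPM in the 4OHT control, below the EtOH control in each pair, with a log2 fold change of -0.52 (SE 0.21, adjusted p 0.24) and of -0.58 (SE 0.08, adjusted p 0.00069) without replicate 1. *Cdk4* was the single gene called higher, at 238, 259 and 289 CPM, with every library above every EtOH control library. Its log2 fold change was 0.25 (SE 0.10, adjusted p 0.24), and 0.25 (SE 0.07, adjusted p 0.026) without replicate 1. Groups that did not overlap were seen for 3 of the 10 genes, *Cdk2*, *Cdk4* and *Cdk6*, and for 21.7% of tested genes. *Ccnd1*, *Ccnd3*, *Ccne2* and *E2f1* passed in none of these fits.

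Some markers of other cells also differed between these groups, which differ in line and treatment. Over 11 markers of endoderm, trophectoderm and fibroblasts, of which 7 passed the filter, the summed level was 27.3 to 37.1 CPM in the 4OHT control and 31.4 to 46.0 CPM in the EtOH control, and none was at 0 in all libraries. With all 3 replicates *Acta2* (0.995 against 11.4 CPM on average) and *Col1a2* (0.806 against 3.18 CPM) were lower in the 4OHT control and none was higher. This was 2 of 7, where 4.06% of all tested genes passed. Of the 7 markers 4 had log2 fold changes above 0, and the median was 0.25. Without replicate 1 *Thy1* was also called, as higher (11.1 against 6.83 CPM on average, log2 fold change 0.70, edgeR adjusted p 0.012). Of the ESC markers *Nanog* was lower and *Zfp42* and *Klf4* were higher without replicate 1. That fit thus called 3 of the 7 and 3 of the 6 ESC markers, where 17.1% of all tested genes passed. The part of these differences in the changes of *Ccnd2*, *Cdk6*, *Cdkn1b* and *Cdk4* was not tested. In bulk samples, fewer cells with an mRNA and less of it per cell cannot be told apart.

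The third comparison set *Zbtb11* KO against the 4OHT control, which received the same 4OHT but is a different line. The deletion and the line cannot be told apart here. This comparison shares libraries with the other comparisons, and the same 4 genes passed the threshold without replicate 1. *Ccnd2* was higher in KO (log2 fold change 1.61, SE 0.26, adjusted p 0.0012), as were *Cdk6* (0.56, SE 0.10, adjusted p 0.0029) and *Cdkn1b* (0.37, SE 0.08, adjusted p 0.0087), and *Cdk4* was lower (-0.24, SE 0.07, adjusted p 0.029). This made 4 of 10 genes where 18.7% of tested genes passed. With all 3 replicates 0 of 10 passed, where 6.45% of tested genes did, and 3 had an unadjusted p under 0.05. With the replicate block there were 5, with *Ccnd1* also lower (log2 fold change -0.16, SE 0.05, adjusted p 0.027), where 34.9% of tested genes passed. *Ccne1*, *Ccne2* and *Cdk2*, with log2 fold changes between -0.01 and 0.01 with all 3 replicates, passed in none of these fits. Of the 4 genes with a Zbtb11 promoter peak, *Cdkn1b* was the only one that passed in the fit without replicate 1, and its difference from the EtOH control of the same line (-0.22) did not pass in that fit.

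**Figure D3:**
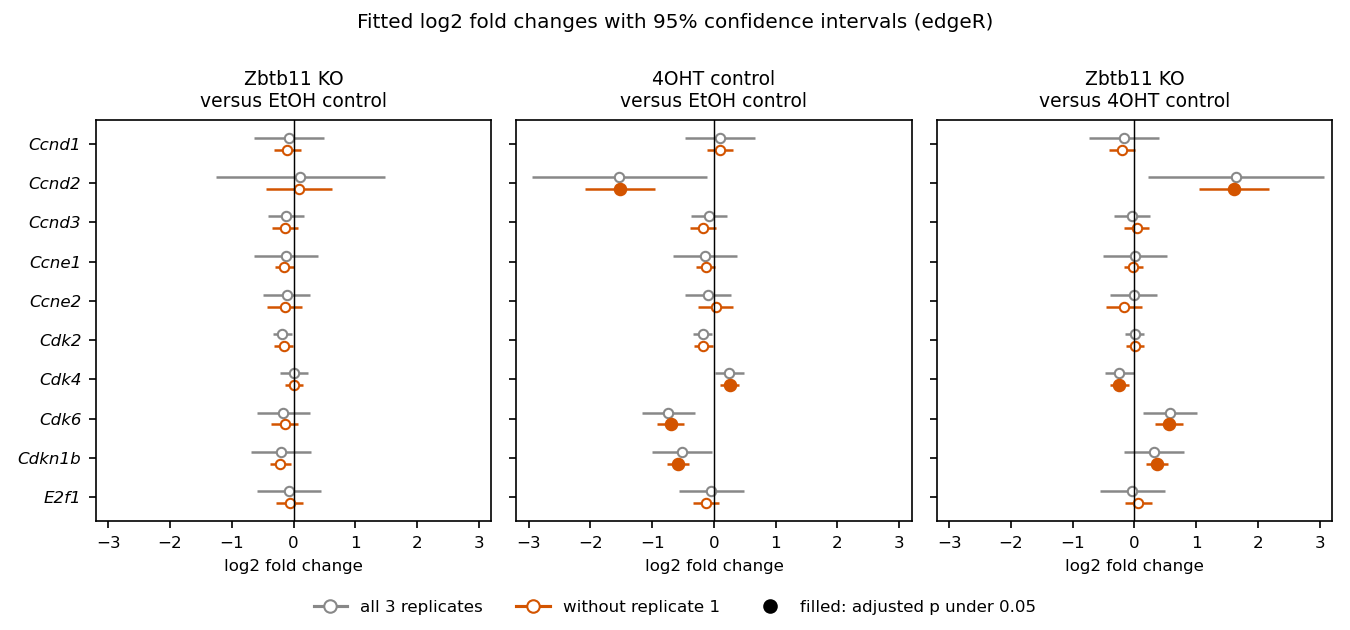
Log2 fold changes (x axis, points) with 95% confidence intervals (lines) of the 10 genes in the 3 comparisons, for all 3 replicates (grey) and without replicate 1 (orange), with filled points for an adjusted p under 0.05. No point is filled between *Zbtb11* KO and the EtOH control, and *Ccnd2*, *Cdk4*, *Cdk6* and *Cdkn1b* are filled without replicate 1 in both comparisons with the 4OHT control.

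Within each group, replicate 1 differed from replicates 2 and 3 by more than KO differed from the EtOH control for most of the 10 genes. It was below both of the others in all 3 groups for *Ccnd1*, *Ccnd2*, *Ccnd3*, *Ccne1*, *Cdk4* and *Cdk6* (6 genes, where 29.4% of tested genes did the same). It was above both in all 3 groups for *Cdkn1b* and *E2f1* (where 30% of tested genes did). The shift was largest for *Ccnd2*, at -1.60, -1.46 and -1.65 on the log2 scale in the EtOH control, KO and 4OHT control. For *Cdkn1b* it was 0.45, 0.48 and 0.61, and for *E2f1* 0.48, 0.44 and 0.70. *Cdk2* shifted by 0.09 at most.

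For each gene the tested gene with the most similar profile was found by Pearson's r on log2 CPM over the 9 libraries, which share the shift of replicate 1. These were *Gm17718* for *Ccnd1* (r = 0.995), *Gps1* for *Ccnd2* (0.993), *Bad* for *Ccnd3* (0.959), *Rnf44* for *Ccne1* (0.998) and *Prps2* for *Ccne2* (0.962). They were *Uchl4* for *Cdk2* (r = 0.956), *Slc35e1* for *Cdk4* (0.992), *Oxsr1* for *Cdk6* (0.992), *Fbxo3* for *Cdkn1b* (0.989) and *Efna1* for *E2f1* (0.989). The values describe these libraries only.

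The wider cell cycle machinery was described with 4 further lists of 61 genes, all of which were tested. Between *Zbtb11* KO and the EtOH control 1 of the 61 genes passed the threshold (background 0.899%), and it was lower. This was *Mnat1*, which encodes the assembly factor of the CDK-activating kinase, the complex with *Cdk7* and cyclin H (*Ccnh*) that phosphorylates and activates Cdk2, Cdk4 and Cdk6. *Mnat1* measured 40.7, 47.9 and 44.5 CPM in the EtOH control, 10.7, 15.9 and 15.5 CPM in KO and 40.0, 44.0 and 45.4 CPM in the 4OHT control. Every KO library was below every library of both controls. The log2 fold change against the EtOH control was -1.66 (SE 0.15, adjusted p 0.0005), and -1.56 (SE 0.09, adjusted p 5.23e-07) without replicate 1. The adjusted p rose to 0.095 without replicate 2 and to 0.075 without replicate 3, with log2 fold changes of -1.70 and -1.73.

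*Mnat1* also had a Zbtb11 peak, much stronger than those of the 10 genes. Its coverage was 436, 670, 484 and 922 in the 4 Zbtb11 libraries (628 ± 221, SD, n = 4) and 651, 635 and 404 in the 3 FLAG-Zbtb11 libraries, which ranked it 310 of 7500 by Zbtb11 coverage. The peak was centred 34 bases upstream of the start. The 300 bases upstream (chr12:74224404-74224703 of mm9, plus strand) lie within the peak and held no exact match to the motifs searched. Binding of GABPa itself was not examined here.

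Mnat1: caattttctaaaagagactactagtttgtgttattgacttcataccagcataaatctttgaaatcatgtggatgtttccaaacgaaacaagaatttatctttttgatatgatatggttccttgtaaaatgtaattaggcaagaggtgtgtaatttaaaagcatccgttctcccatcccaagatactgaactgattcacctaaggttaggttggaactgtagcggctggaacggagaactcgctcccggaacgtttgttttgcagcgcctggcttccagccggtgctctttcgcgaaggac

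With 41.3% G and C, this window was poorer in these bases than the windows of the 10 genes. Of its partners, *Cdk7* also had a promoter peak (coverage 102 ± 13.4, SD, n = 4) and *Ccnh* had none. The mRNA of *Cdk7* was 59.2, 63.1 and 61.2 CPM in the EtOH control and 56.1, 60.7 and 64.6 CPM in KO, and that of *Ccnh* 35.5, 40.0 and 42.7 against 35.0, 44.0 and 38.2 CPM. For both of them the groups overlapped. Over all tested genes, 2.86% of the 4026 with a high-confidence promoter peak passed between KO and the EtOH control (107 lower and 8 higher), against 0.136% of the 10320 without. Of the 4 G1/S genes with a peak none passed.

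**Figure D4:**
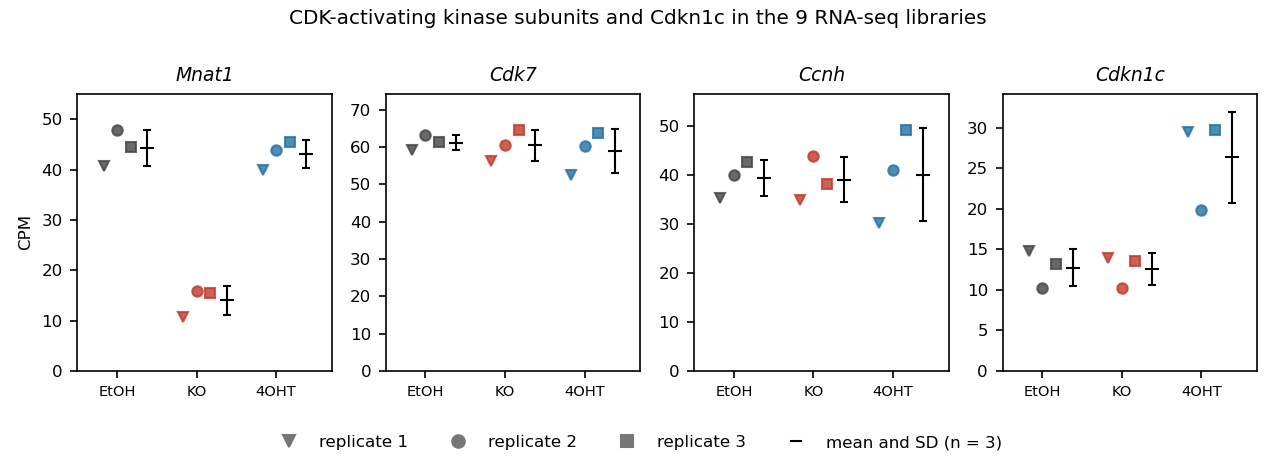
Level (CPM, linear axes from 0) of the 3 subunit genes of the CDK-activating kinase, *Mnat1*, *Cdk7* and *Ccnh*, and of *Cdkn1c* in the 9 libraries, drawn by group and replicate number with mean and SD (n = 3). *Mnat1* is lower in all 3 *Zbtb11* KO libraries (10.7 to 15.9 CPM) than in any control library, and *Cdkn1c* is higher in all 3 libraries of the 4OHT control.

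The remaining genes of these lists did not pass between KO and the EtOH control in the fits with all 3 replicates and without replicate 1. Of the 13 CDK inhibitors and activators 1 was lower, and of 12 genes of the RB and E2F families, 21 replication genes controlled by E2F and 15 genes of G2 and M phase 0 passed, with 0 of these 48 under an unadjusted p of 0.05 with all 3 replicates. Without replicate 1 there were 3 of 48 at that unadjusted p. Of the 21 replication genes 17 were below 0, with log2 fold changes from -0.11 to 0.04 and a median of -0.03. For the 15 genes of G2 and M phase the median was 0.02.

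Between the 4OHT and EtOH controls *Cdkn1c*, which encodes the p57 inhibitor, was the only one of the 61 that passed with all 3 replicates (background 4.06%). It measured 29.4, 19.8 and 29.7 CPM against 14.8, 10.3 and 13.2 CPM, with a log2 fold change of 1.05 (SE 0.20, adjusted p 0.025), and it was lower in KO than in the 4OHT control (-1.07, SE 0.20, adjusted p 0.015). These calls were lost without replicate 2 (adjusted p 0.18 and 0.058) or replicate 3 (0.37 and 0.27). Without replicate 1, 12 of the 61 genes passed between the controls (17.1% of tested genes did), 3 higher and 9 lower, and 24 with the replicate block (33.6%). Of the 21 replication genes 5 were lower, among them *Cdc6* (log2 fold change -0.35), *Orc1* (-0.29) and *Mcm4* (-0.27), which load the replicative helicase or belong to it. Of the RB and E2F families *Tfdp2*, *E2f5* and *Rb1* were lower among 4 that passed, of the CDK inhibitors and activators *Cdc25a* was lower, and of the G2 and M phase genes *Bub1* was higher.

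Between KO and the 4OHT control 2 of the 61 genes passed with all 3 replicates (background 6.45%), *Mnat1* (log2 fold change -1.62, SE 0.15, adjusted p 0.00028) and *Cdkn1c*, both lower in KO. Without replicate 1 there were 12, 4 higher and 8 lower (18.7% of tested genes passed), and 27 with the replicate block (34.9%). Besides these 2 genes they included *Cdc25a* (0.27), *Cdc6* (0.35) and *Rb1* (0.51), which were higher in KO, and *E2f8* (-0.34), *E2f4* (-0.22), *Mcm5* (-0.27) and *Bub1* (-0.31), which were lower, all as log2 fold changes.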

How the data were processed

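RNA-seq counts per gene were used as deposited by the authors, who aligned reads with STAR, counted them with HTSeq and did not normalise them. Normalised coverage (signal) of 7500 peaks and 3 peak lists were also used as deposited. Per the labels, the authors used Bowtie 1.1.2, MACS2 and DiffBind, and mm9. Counts were fitted with edgeR 4.0.16 in R 4.3.3 (TMM, 3 groups together, legacy quasi-likelihood F test, two-sided), with Benjamini-Hochberg adjustment over all tested genes. CPM and RPKM use TMM. With 2 replicates a group, the filter was 1 CPM in 2 libraries. DESeq2 1.42.0 was an alternative, as were other filters, scalings, the replicate block and each replicate left out. The block without replicate 1 was added after seeing the data. Sequences were read with the GENCODE vM1 starts from mm9 and compared with blastn 2.17.0.

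After subtraction of group means, libraries with the same replicate number correlated at 0.475 to 0.844 in all 9 pairs and others at 0.555 at most. Replicate 2 of the EtOH control correlated at 0.555 with replicate 3 of the 4OHT control and at 0.475 with its replicate 2. The numbers were taken as pairs, although replicates 2 and 3 are thus not clearly matched by number. Groups of 3 biological replicates limit the precision. On simulated data for KO against the EtOH control (14154 genes), a log2 change of 0.5 was recovered for 10.6% of altered genes and one of 1 for 81.8%, and without replicate 1 (14000 genes) 76.8% and 100%. The simulated counts had the same spread for all genes and no shift of replicate 1, unlike these data. The shares recovered are therefore a rough guide and can differ for a given gene. The genes, lists and tests were chosen with earlier results of these data known. All 10 genes are named, other list genes if they passed with all 3 replicates or without replicate 1 (at most 3 of a list and comparison by p), with the most similar gene for each of the 10. *Cdk7* and *Ccnh* were named after their values were seen. Input libraries were not analysed here.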

Additional observations from a re-analysis of the deposited data

Results flagged for a closer look

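Chance flags about 1 in 20 groups of this kind. Among the 4 promoter peaks, the Zbtb11 coverage of *Ccne2* in replicate 1 was 45.6, far below the other 3 libraries at 79.8 to 85.0. The FLAG-Zbtb11 libraries gave 57.0 to 72.8 there.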

How the results depend on the processing

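Between *Zbtb11* KO and the EtOH control 0 of the 10 G1/S genes passed under every alternative run. The single call among the 61 further genes became 0 to 1 with a replicate left out. Between the 4OHT and EtOH controls, the count of G1/S genes was 1 with DESeq2, 6 with the replicate block, 5 with the block without replicate 1 and 0 to 4 with a replicate left out. For the 61 genes it was 8 with DESeq2, 4 with more than 5 CPM, 2 with the newer quasi-likelihood form, 0 with only the 2 groups compared, 24 with the replicate block, 21 with the block without replicate 1 and 0 to 12 with a replicate left out. Between KO and the 4OHT control the G1/S count was 5 with the replicate block, with and without replicate 1, and 0 to 4 with a replicate left out, and for the 61 genes it was 4 with DESeq2, 27 with the block, 20 with the block without replicate 1 and 1 to 12 with a replicate left out. The cause of these changes was not tested. The block changed no other call of the 10 genes.

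Signs turned for some small log2 fold changes, all of them uncalled. With each replicate left out in turn, *Cdk4* lay between -0.016 and 0.021 for KO against the EtOH control. For the 4OHT control against the EtOH control, *Ccnd3* lay between -0.17 and 0.037, *Ccne2* between -0.26 and 0.026 (0.019 with the block without replicate 1) and *E2f1* between -0.13 and 0.022. For KO against the 4OHT control, *Ccnd3* lay between -0.16 and 0.034 (0.027 with the block without replicate 1), *Ccne1* between -0.026 and 0.091 (-0.019 with that block), *Ccne2* between -0.17 and 0.18 (0.021 with library sizes alone), *Cdk2* between -0.0089 and 0.012 and *E2f1* between -0.16 and 0.064 (0.066 with that block). The 4 genes with a promoter peak were 4 with any transcript start, with 1 kb on each side and with most of the peak inside, 5 in either full list and 0 in the FLAG control.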
